A study of Mus musculus with 68 samples.

Results

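The tumours described here were those on 56 of the 68 arrays of the series, divided into 2 classes by the level of Rbm45, a gene of mouse chromosome 2. All 68 arrays hold total RNA of mammary tumours that arose in animals carrying the MMTV-PyMT transgene. In that transgene a viral promoter active in mammary epithelium expresses middle T, an oncoprotein of polyoma virus. Per the labels the animals were a backcross, ((NZB x PyMT) x FVB), so the transgene and an FVB parent were common to both classes, and the labels form 1 group with no genotype, treatment or age. The arrays were kept if the mean of their 18S ribosomal RNA control probe sets lay below 8 on the log2 scale. The highest kept array had 6.84 and the lowest left-out array 8.97. The 56 tumours came from 56 different animal numbers. The members of each class were chosen by the measured Rbm45 level, above 6.5 for the Rbm45-high class (26 tumours) and 6.5 or below for the Rbm45-low class (30 tumours). The other 12 arrays were left out of the classes. The classes are putative genotypes read from RNA. No source used here says which parental allele goes with the high level.

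In a backcross each animal inherits, at each autosomal locus, 1 of the 2 alleles of its hybrid parent, and neighbouring loci are inherited together in long blocks. A sequence difference that acts on the gene it lies next to gives expression differences that follow such a block, whereas a difference that acts through a diffusible product may change genes on any chromosome. On hybridisation arrays, a strain difference in the sequence under a probe also changes the signal without any change of the transcript's level. Rbm45 encodes an RNA-binding protein with RNA recognition motifs that is known from the nervous system, where it associates with Tardbp, and it binds Keap1, the adaptor that marks the transcription factor Nfe2l2 for degradation.

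Promoters of Rbm45 and of the genes with the largest called difference in each direction, Metap1d and Ola1, are shown because these genes separated the tumours most widely and lie within 5 Mb of each other. Each sequence runs 5′ to 3′ on the gene's strand from 250 bases before to 50 bases after the start in RefSeq (GRCm38.p6), and the motif CG is in capitals. The positions are chr2:76369734-76370033 (plus strand) for Rbm45, chr2:71453088-71453387 (plus strand) for Metap1d and chr2:73214398-73214697 (minus strand) for Ola1. They are reference sequences of the mouse genome and were not read from NZB, FVB or the tumours.
Rbm45: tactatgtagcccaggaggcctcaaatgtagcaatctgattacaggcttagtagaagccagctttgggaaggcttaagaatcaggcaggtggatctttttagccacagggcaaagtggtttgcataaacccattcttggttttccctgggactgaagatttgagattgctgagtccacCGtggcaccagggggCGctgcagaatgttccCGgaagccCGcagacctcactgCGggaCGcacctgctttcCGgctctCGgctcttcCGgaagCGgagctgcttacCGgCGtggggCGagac
Metap1d: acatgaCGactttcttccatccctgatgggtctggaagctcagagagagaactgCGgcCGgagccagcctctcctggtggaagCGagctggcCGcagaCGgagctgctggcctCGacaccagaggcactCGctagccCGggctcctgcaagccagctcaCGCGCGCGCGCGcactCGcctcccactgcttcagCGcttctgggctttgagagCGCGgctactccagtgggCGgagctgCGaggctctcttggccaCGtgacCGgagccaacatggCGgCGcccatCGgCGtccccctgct
Ola1: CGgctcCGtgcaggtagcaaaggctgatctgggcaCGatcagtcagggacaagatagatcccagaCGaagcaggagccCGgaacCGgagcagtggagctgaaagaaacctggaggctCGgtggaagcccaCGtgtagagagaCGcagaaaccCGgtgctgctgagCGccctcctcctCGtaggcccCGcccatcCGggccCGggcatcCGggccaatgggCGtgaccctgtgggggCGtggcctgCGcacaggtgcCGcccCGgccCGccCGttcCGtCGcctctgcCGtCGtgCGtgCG
The Rbm45 window held 13 CG motifs, the Metap1d window 27 and the Ola1 window 29. The median over 32851 RefSeq promoter windows of the same length was 7, and 94.6% of them held at least 1. Fewer motifs than in the Rbm45, Metap1d and Ola1 windows were found in 62.1%, 84.5% and 87.1% of all windows. The motif reads the same on both strands. A promoter entry was matched for 9 of the 12 genes called below.

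Rbm45 was measured by 1 probe set, 1437904_at. Its log2 level was 6.88 at lowest, 7.38 at the median and 7.71 at highest in the 26 Rbm45-high tumours. In the 30 Rbm45-low tumours it was 5.03, 5.59 and 6.07. These values chose the classes and are given as a description. The means were 7.32 ± 0.24 (SD, n = 26) and 5.57 ± 0.26 (SD, n = 30), which differ by 1.75. No tumour lay between 6.07 and 6.88. The levels just below the threshold were 6.07, 5.93 and 5.91, and those just above it 6.88, 6.91 and 6.99. A threshold placed by least squares fell at 6.48 and gave the same classes.

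Some technical measures moved with the classes. The arrays fall into sets that were found from the values and are not named in the labels. The title suffix R, whose meaning is not given, was on 8 of the 9 arrays of set 3 and on none of sets 1 and 4. All 8 arrays of set 4 came from animals numbered above 4000. The 39 arrays of set 1 held 16 high and 23 low tumours, the 9 arrays of set 3 held 7 and 2, and the 8 arrays of set 4 held 3 and 5. Set 3 against the others gave p = 0.0663, and the title suffix R, found on 6 high and 2 low tumours, gave p = 0.127 (Fisher's exact test, two-sided, not adjusted over the 4 splits examined). As the suffix R arrays all lay in set 3, these are nearly the same split and not separate measures. The Actb 3′ minus 5′ difference, a measure of RNA integrity, had a median of 0.93 in the high and 0.79 in the low tumours. The corresponding Gapdh medians were -0.03 and -0.14. The array set was therefore a term in the comparison of the 56 tumours. Mammary epithelial markers were high in both classes: the mean log2 level of the 15 listed markers, Krt8, Krt18 and Epcam among them, ran from 9.83 to 10.50 in the high and from 9.43 to 10.43 in the low tumours.

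Every other gene was compared between the classes with limma, and 12 of 12560 genes tested passed a Benjamini-Hochberg adjusted p of 0.05, 0.0955% of those tested. 10 were higher in the Rbm45-high tumours (0.0796%) and 2 were lower (0.0159%). All 12 lie on chromosome 2, where 999 genes were tested. None of the 11520 genes placed on other chromosomes passed in limma, and 632 of them had an unadjusted p under 0.05. The differences of these 12 genes are differences in log2 RMA values, high minus low, with the standard error (SE) of the fit. The class is an Rbm45 reading, so what is tested is whether a gene differs with the class, not the class itself.

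Metap1d had the largest called difference. It encodes the mitochondrial methionine aminopeptidase, which removes the first methionine of proteins made inside mitochondria. Its log2 level was 6.59 at lowest, 6.98 at the median and 7.50 at highest in the high tumours, and 5.70, 6.21 and 6.48 in the low tumours. The classes did not overlap, which held for 1 of the 12 called genes. The share of all tested genes without overlap was not counted. The difference was 0.90 (SE 0.044, limma adjusted p = 3.61e-23), a 1.87-fold higher signal. Within array set 1 it was 0.94, within array sets 3 and 4 it was 0.79, in animals numbered below 4000 it was 0.93 and in those numbered above it was 0.81. Metap1d was already known from earlier results of these data to split with Rbm45, so its call is no independent support. A second Metap1d probe set was dim, with a mean of 2.64, and was not tested.

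Ola1 was the called gene with the largest difference in the other direction. It encodes an Obg-like ATPase of the P-loop NTPase family that acts in stress responses. Its level was 8.19, 8.53 and 9.23 in the high tumours and 8.89, 9.49 and 9.84 in the low tumours (lowest, median, highest). 3 high tumours lay above the lowest low tumour, and 4 low tumours lay below the highest high tumour. The difference was -0.78 (SE 0.059, limma adjusted p = 8.67e-15). The other Ola1 probe sets that passed the filter differed far less: 1438094_x_at, at a mean of 8.62, by -0.11 and 1460391_at by -0.13, neither called when every probe set was tested. Whether the transcript or the match of 1 probe set to a strain's sequence differed cannot be told apart here.

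**Figure D1:**
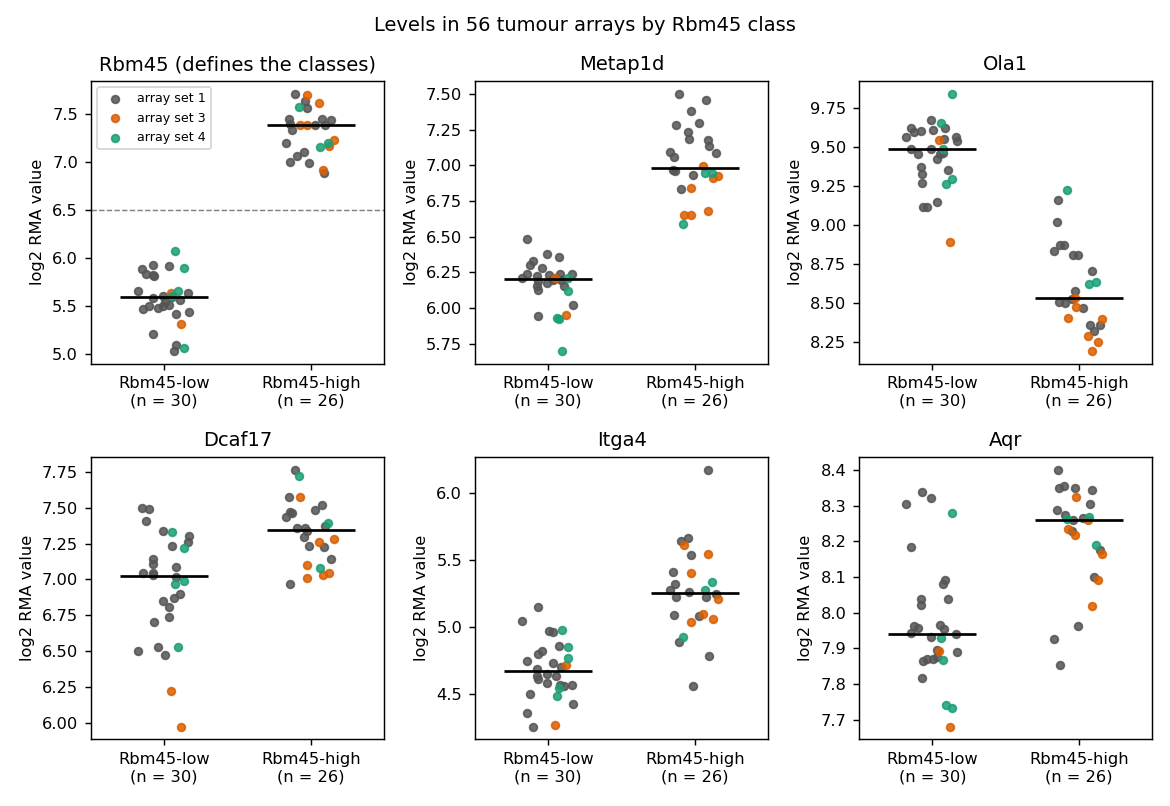
Log2 RMA values of Rbm45 and 5 called genes in the 30 Rbm45-low and 26 Rbm45-high tumours; points are arrays coloured by array set, black lines are medians and the dashed line is the threshold of 6.5. Metap1d does not overlap between the classes (6.48 at highest against 6.59 at lowest), Ola1 is lower in the high class, and Dcaf17, Itga4 and Aqr overlap.

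The genes next to Rbm45 in the reference order mostly did not pass. Among the 20 nearest tested genes, 10 on each side, Itga4 was called higher and Ttc30b lower, and 4 had an unadjusted p under 0.05. Their differences ran from -0.27 to 0.59, with 14 above and 6 below 0. Agps, a peroxisomal enzyme of ether lipid synthesis, differed by 0.04 (SE 0.072), and Prkra, an activator of a kinase that senses double-stranded RNA, by 0.06 (SE 0.046). Ttn, the giant spring protein of striated muscle, differed by 0.55 with an SE of 0.63 and lay anywhere from 2.98 to 12.1 in the high tumours.

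Ttc30b, whose product is a subunit of the intraflagellar transport machinery of cilia, is the second tested gene before Rbm45. It had 7.21, 7.92 and 8.30 in the high and 7.83, 8.21 and 8.44 in the low tumours. The classes overlapped between 7.83 and 8.30, where 20 high and 23 low tumours lay, and the difference was -0.27 (SE 0.053, limma adjusted p = 0.00486). Its neighbour Ttc30a1, a close paralogue, differed by 0.04 (SE 0.077).

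Nfe2l2, the fourth gene before Rbm45, encodes the transcription factor of the antioxidant response that Keap1 holds down. It had 9.06, 9.39 and 9.75 in the high tumours and 9.27, 9.56 and 9.76 in the low tumours. The difference of -0.18 (SE 0.044) did not pass (limma adjusted p = 0.155).

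Itga4, the tenth tested gene after Rbm45, encodes an integrin alpha chain by which leukocytes bind to vessel walls and matrix. It had 4.56, 5.25 and 6.18 in the high and 4.26, 4.67 and 5.15 in the low tumours. 9 high tumours lay below the highest low tumour, and 23 low tumours lay above the lowest high tumour. The difference was 0.59 (SE 0.076, limma adjusted p = 9.32e-07). The signal is dim, and no low tumour reached 5.42, the median of all values that the filter on dim genes uses. Itga4 was therefore tested only because of the high tumours. With no filter the difference passed as well (limma adjusted p = 1.22e-06), and under a filter on the mean the gene was not tested. The other Itga4 probe sets were dimmer still and did not pass the filter, and 1421194_at had a mean of 4.75 in the high and 4.92 in the low class, the opposite order. In bulk tissue, fewer cells of a type and less RNA per cell cannot be told apart. No gene of the leukocyte lists was called in limma. Median list levels were 5.69 against 5.75 for T and NK cells, 8.77 against 8.88 for macrophages and 5.14 against 5.18 for B and plasma cells, high against low.

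Nckap1, a subunit of the WAVE complex that drives actin branching, is the thirteenth gene after Rbm45. It was a bright gene with a narrow spread: 10.6, 10.9 and 11.1 in the high and 10.5, 10.6 and 10.9 in the low tumours. The difference of 0.20 (SE 0.031) passed (limma adjusted p = 5.29e-05). 1700029I15Rik, further along, was dim, with 4.41, 5.13 and 5.84 in the high and 4.27, 4.53 and 5.30 in the low tumours. Its difference was 0.53 (SE 0.072, limma adjusted p = 3.19e-06). Like Itga4 it passed the filter only through the high tumours, which applied to 2 of the 12 called and 17 of the 12560 tested genes. With no filter its adjusted p in limma was 4.18e-06. The other probe set of 1700029I15Rik, 1438499_at, did not pass the filter and had means of 4.22 in the high and 4.13 in the low tumours.

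Dcaf17, a substrate receptor of the DDB1-CUL4 ubiquitin ligase, lies 5 genes beyond Metap1d on the side before Rbm45. Its brightest probe set had 6.97, 7.34 and 7.77 in the high and 5.97, 7.02 and 7.50 in the low tumours, with broad overlap. The difference was 0.45 (SE 0.077, limma adjusted p = 5.41e-04). A second probe set, 1433831_at, had 5.86, 6.48 and 6.90 against 4.23, 5.53 and 6.19. Tested with every probe set, its difference was 1.12 (limma adjusted p = 1.72e-10), larger than that of the brighter one, and its classes overlapped only between 5.86 and 6.19.

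The remaining called genes lie farther away. Aqr, an intron-binding helicase of the spliceosome, had 7.85, 8.26 and 8.40 in the high and 7.68, 7.94 and 8.34 in the low tumours (difference 0.25, SE 0.044, limma adjusted p = 9.09e-04). A second Aqr probe set that passed the filter, 1452448_at, at a mean of 5.43, differed by 0.08 (SE 0.074). It was not called when every probe set was tested (limma adjusted p = 0.782), and the remaining Aqr probe sets did not pass the filter. Ndufaf1, an assembly factor of respiratory complex I, had 7.35, 7.997 and 8.42 against 6.95, 7.46 and 8.05 (difference 0.46, SE 0.075, limma adjusted p = 1.72e-04). Spint1, a membrane-bound inhibitor of the proteases matriptase and hepatocyte growth factor activator, had 7.99, 8.67 and 9.20 against 7.35, 8.23 and 9.25 (difference 0.37, SE 0.076, limma adjusted p = 0.00995). All 3 overlap between the classes and are the 136th, 175th and 165th tested genes after Rbm45. Spint1 differed by 0.28 within array set 1 and by 0.62 within sets 3 and 4.

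On the other side, Mmadhc, which routes cobalamin inside the cell, is the 79th gene before Rbm45, and Adamtsl2, a secreted matrix glycoprotein, the 220th. Mmadhc had 9.38, 9.63 and 9.85 against 9.16, 9.54 and 9.66 (difference 0.13, SE 0.028, limma adjusted p = 0.0160). Adamtsl2 had 6.90, 7.63 and 8.11 against 6.64, 7.23 and 7.89 (difference 0.35, SE 0.078, limma adjusted p = 0.0436). Adamtsl2 passed in 6 of 15 alternative settings, the fewest of the 12.

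A few more genes of chromosome 2 missed the threshold here but passed it under some alternatives, and are named after their values were seen. Slc43a3, a purine nucleobase transporter, differed by -0.61 (SE 0.14, limma adjusted p = 0.0507), with 6.21, 7.24 and 8.22 in the high and 6.62, 7.83 and 8.86 in the low tumours. It passed in 6 of 15 alternatives, as many as the called gene Adamtsl2. Rnd3 differed by 0.38 (SE 0.092, limma adjusted p = 0.124) and passed in 4 of 15. Klhl41, a kelch protein of skeletal muscle, had the largest difference of the chromosome 2 genes tested in their brightest probe sets, 1.08 (SE 0.27, limma adjusted p = 0.151), with 3.61, 5.20 and 8.29 against 3.41, 4.21 and 5.68. Skeletal muscle markers varied widely within both classes, from a mean of 4.13 to 11.8 in the high and 4.37 to 10.95 in the low tumours. None of the 16 muscle genes was called, and their median difference was 0.55 against 0.03 for all genes. With scores of muscle, fat, T and NK cells, fibroblasts and mitosis as further terms, Klhl41 differed by 0.88 (SE 0.13) and passed (limma adjusted p = 1.45e-05), while Ttn, itself part of the muscle score, differed by -0.04 (SE 0.11). Klhl41 passed in 2 of 14 alternatives, and within array sets 3 and 4 its difference was 0.33 (SE 0.43).

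By distance from Rbm45 in GRCm38.p6, 5 of 37 tested genes within 5 Mb were called, 1 of 42 from 5 to 10 Mb, 1 of 82 from 10 to 25 Mb and 5 of 309 from 25 to 50 Mb. With no filter 6 of 65 genes within 5 Mb were called, and with a filter on the mean, which leaves out Itga4 and 1700029I15Rik, 4 of 32. None of 529 beyond 50 Mb was called in limma, where 40 had an unadjusted p under 0.05. The share of genes with an unadjusted p under 0.05 was 40.5% within 5 Mb, 28.6% from 5 to 10 Mb, 10.98% from 10 to 25 Mb, 11.7% from 25 to 50 Mb, 7.56% beyond and 5.49% on other chromosomes. The shares fell from the nearest to the third window and were level to the fourth. Within 5 Mb the nominal differences ran both ways, 8 higher and 7 lower. From 25 to 50 Mb 30 were higher and 6 lower, and beyond 50 Mb 33 and 7. Most were also higher on other chromosomes, 532 against 100 lower, so this direction is not particular to distant genes of chromosome 2. The 12 called genes lie equally on both sides, 6 of 359 tested before Rbm45 and 6 of 640 after it.

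**Figure D2:**
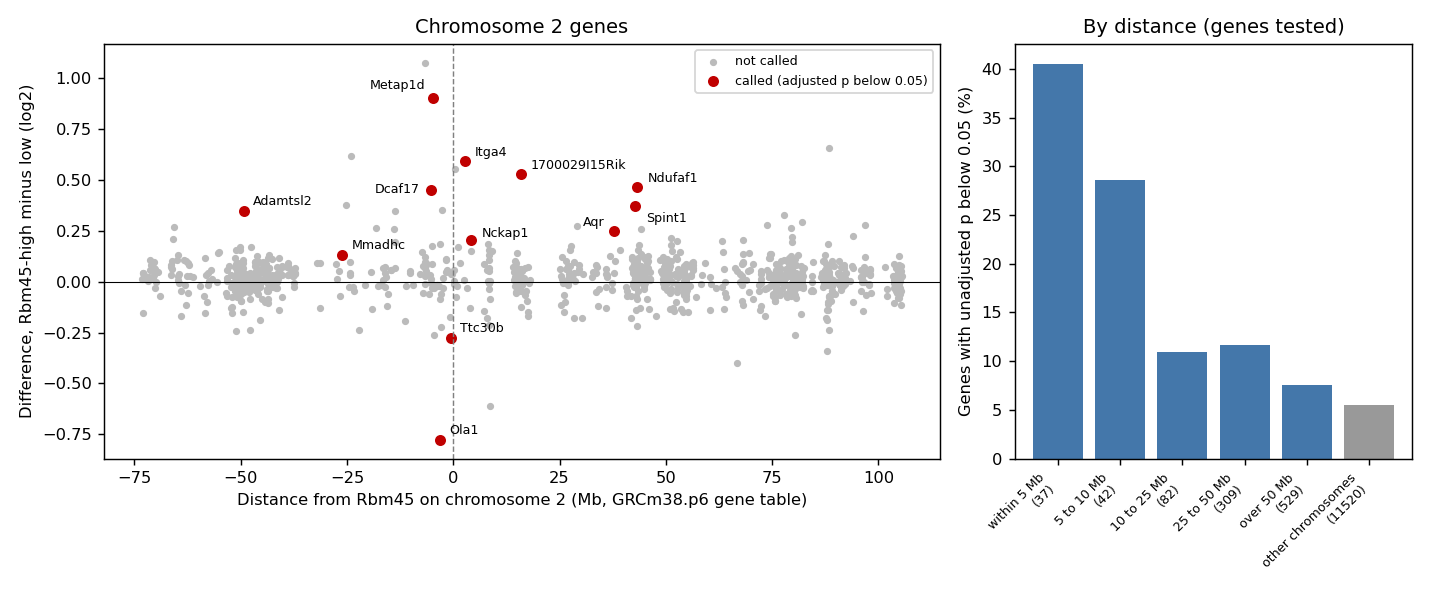
Left, the difference between Rbm45-high and Rbm45-low tumours (log2) of each tested chromosome 2 gene against its distance from Rbm45 in Mb; red points are the 12 called genes. Right, the percentage of genes with an unadjusted p under 0.05 by distance, from 40.5% within 5 Mb to 5.49% on other chromosomes, with the number of genes tested in brackets.

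Each called gene was also split in 2 on its own values by least squares, and each tumour's side was set against its Rbm45 class. The count is of the better-matching orientation, so it cannot fall below 28 of 56. In their order on the chromosome, Adamtsl2 matched in 43 tumours, Mmadhc in 35, Dcaf17 in 38, Metap1d in 55, Ola1 in 52 and Ttc30b in 43. After Rbm45, Itga4 matched in 50, Nckap1 in 47, 1700029I15Rik in 49, Aqr in 46, Spint1 in 41 and Ndufaf1 in 46. Matching was closest for Metap1d, Ola1 and Itga4, all within 5 Mb, but it did not fall steadily with distance. Of these, Metap1d was known beforehand to split with Rbm45, and Itga4 passed the filter only through the high tumours. 1700029I15Rik, in the window from 10 to 25 Mb, followed with 49, against 47 for Nckap1 and 43 for Ttc30b within 5 Mb. Dcaf17, from 5 to 10 Mb, had 38. From 25 to 50 Mb, Aqr and Ndufaf1 had 46, Adamtsl2 43, Spint1 41 and Mmadhc 35. These counts come from the same values as the calls and describe them. Ttc30b, nearest to Rbm45 of all 12, matched less than several genes farther away. Its own 2 sides were also the least separated of the 12, with an Ashman's D (the gap between the side means in units of the spread within sides) of 2.57, against 4.20 for Metap1d and 4.32 for Ola1.

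**Figure D3:**
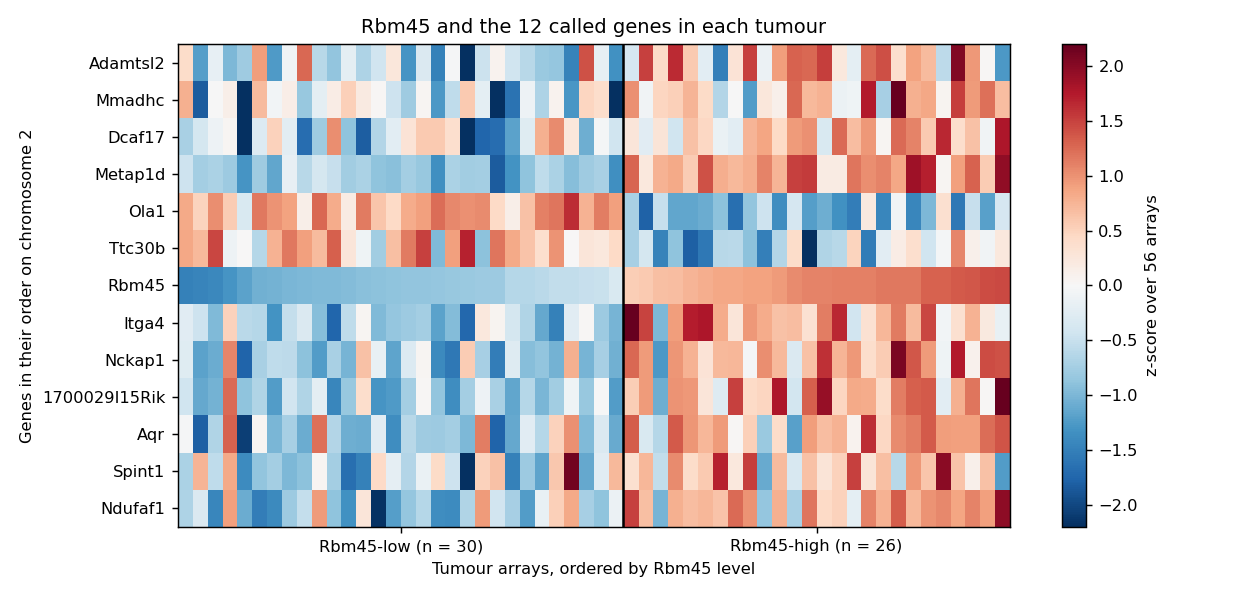
Z-scores of Rbm45 and the 12 called genes (rows, in their order on chromosome 2) in the 56 tumours (columns, ordered by Rbm45); the black line divides the 30 low from the 26 high tumours. Metap1d follows the Rbm45 classes most closely, with Ola1 and Ttc30b reversed, while Mmadhc and Adamtsl2 hold mismatched tumours on both sides.

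Genes listed because their levels appeared to fall into separate clusters in this cross gave a comparison, mostly from other putative loci. That list was picked in earlier results of these data for such clusters. Not all its genes were well separated in the 56 tumours: Ashman's D ran from 2.63 for Fcgr2b to 18.1 for BC018473. Of its 15 genes Aqr alone, on chromosome 2, was called. The other 14 matched the Rbm45 class in 28 to 36 of 56 tumours. BC018473 on chromosome 11, with the widest separation of its clusters, matched in 28 and differed by 0.01 (SE 1.2). H2-Eb1, an MHC class II chain on chromosome 17, also matched in 28 and differed by -0.07 (SE 0.35). Rab1b on chromosome 19 gave the highest match, 36, with a difference of -0.08 (SE 0.073). The matches do not take the array set into account, whereas the differences do. Without that term the class means of Rab1b were 9.10 in the high and 9.38 in the low tumours. Whether its match follows the array sets was not tested.

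Genes on other chromosomes showed no call, and the differences that came nearest were small. Mrpl12, a protein of the mitochondrial ribosome encoded on chromosome 11, had the lowest p, with 9.40, 9.82 and 10.8 in the high and 9.28, 9.74 and 10.4 in the low tumours (difference 0.22, SE 0.062, limma adjusted p = 0.380). Cox17, a copper chaperone for cytochrome oxidase on chromosome 16, differed by 0.12 (SE 0.035, limma adjusted p = 0.415). Of the 632 genes with an unadjusted p under 0.05 on other chromosomes, 532 were higher and 100 lower in the high class. With the RNA integrity measures as further terms the counts, here also with genes not placed on a chromosome, were 531 and 106. Counted in that way they were 535 and 102 in the comparison itself, 797 and 246 without the array set term, 944 and 160 without the arrays within 0.5 of the threshold and 380 and 74 with the number range as a further term. The median difference of all genes was 0.03.

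The 27 gene lists were described by their counts. Over all tested genes, 749 of 12560 (5.96%) had an unadjusted p under 0.05, 621 of them higher and 128 lower, and 67.1% of all differences were positive. A call occurred in 2 of them: Metap1d in protein N-terminal processing and Aqr in the list of clustered genes. Among 20 measured genes of RNA-binding partners and m6A machinery listed with Rbm45, none was called in limma, 1 had an unadjusted p under 0.05 (5.96% of all genes had), and the median difference was 0.05, against 0.03 for all genes. Tardbp differed by 0.03 (SE 0.042), Keap1 by 0.06 (SE 0.047) and the m6A methyltransferase subunits Mettl3 and Mettl14 by 0.06 (SE 0.037) and 0.08 (SE 0.065).

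The Nrf2 pathway, whose transcription factor Nfe2l2 lies beside Rbm45, had no call in limma among 24 genes, 3 with an unadjusted p under 0.05 (5.96% of all genes), and a median difference of -0.02, against 0.03 for all genes. Hmox1, the haem-degrading enzyme, differed by -0.28 (SE 0.099, limma adjusted p = 0.767). Gclc, the catalytic subunit of glutathione synthesis, differed in the other direction, by 0.10 (SE 0.040, limma adjusted p = 0.790). The classical target Nqo1 differed by 0.07 (SE 0.099).

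The other enzymes of N-terminal processing had differences from 0.00 to 0.16, against 0.90 for Metap1d. Metap1 and Metap2, the cytosolic methionine aminopeptidases, differed by 0.03 (SE 0.032) and 0.05 (SE 0.037), and Pdf, which removes the formyl group before Metap1d acts, by 0.04 (SE 0.034). The mitochondrial ribosome list had no call in limma among 21 genes, 4 with an unadjusted p under 0.05 (5.96% of all genes). Its differences ran from 0.03 to 0.22, with a median of 0.08 against 0.03 for all genes. Positive differences throughout were found in 5 of the 27 lists, DNA replication among them. The largest differences in the mitochondrial ribosome list were those of Mrpl12 and, on chromosome 2, Mrps5 (0.22, SE 0.060, limma adjusted p = 0.380).

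Of 12 measured genes reported to modify metastasis in mouse crosses or tumours, none was called in limma, 1 had an unadjusted p under 0.05 (5.96% of all genes), and the median was 0.03, as for all genes. Cdh1, the epithelial cadherin, differed by 0.12 (SE 0.043, limma adjusted p = 0.790), Sipa1 by -0.02 (SE 0.046) and Rrp1b by 0.04 (SE 0.065). Interferon response genes had a median of 0.15, with SEs of 0.24 for Ifit1 and 0.25 for Oasl2 that exceed their differences of 0.16 and 0.22. In tumour epithelium, Foxa1, a pioneer factor of luminal cells, had the largest difference, 0.42 (SE 0.19, limma adjusted p = 0.790). Pdk1, a kinase that limits pyruvate entry into mitochondria and the largest of the hypoxia list, lies on chromosome 2 within 5 Mb of Rbm45 and differed by -0.26 (SE 0.085, limma adjusted p = 0.734).

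The arrays left out gave values that the classes did not use. 10 of the 12 came from animals not among the 56. On them the Rbm45 level ran from 5.47 to 6.28, all below 6.5, so the threshold does not carry over, and slopes on the Rbm45 level were fitted instead. The levels again left a gap, from 5.68 to 6.05, with 5 arrays on each side.

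All 12 called genes had a slope of the same sign as their difference in the 56 tumours. The share of all tested genes whose slope kept its sign was not counted. 8 of the 12 had an unadjusted p under 0.05, against 806 of 12560 genes (6.42%) overall. None of the 12 passed after adjustment over all genes in limma, where 1 of 12560 genes was called (0.00796%). Ola1 had a slope of -1.14 per log2 unit of Rbm45 (SE 0.19, limma adjusted p = 0.213). Dcaf17 had 1.25 (SE 0.23, limma adjusted p = 0.313), Aqr 1.52 (SE 0.30, limma adjusted p = 0.428) and Metap1d 0.98 (SE 0.29, limma adjusted p = 0.618). With all 12 arrays the sign held for 11 of the 12, and Adamtsl2 had a slope of -0.014.

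On the 5 arrays with the lower Rbm45 levels, Ola1 was 7.97, 7.91, 8.18, 8.13 and 7.77, and on the 5 with the higher levels 7.38, 7.17, 7.23, 7.52 and 7.13, with no overlap. Dcaf17 was 5.60, 5.34, 5.74, 5.75 and 5.62 against 6.51, 6.03, 6.32, 6.77 and 6.34, again with no overlap. Spint1 did not overlap either, with 7.84 at highest on the lower and 7.95 at lowest on the higher arrays. All other called genes overlapped. The share of all tested genes without overlap on these arrays was not counted. Metap1d was 5.67, 6.01, 5.53, 5.83 and 5.10 against 6.10, 5.94, 6.31, 6.56 and 6.38. Here 1 array of the lower group exceeded the lowest of the higher group, so the complete separation of Metap1d in the 56 tumours was not seen.

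**Figure D4:**
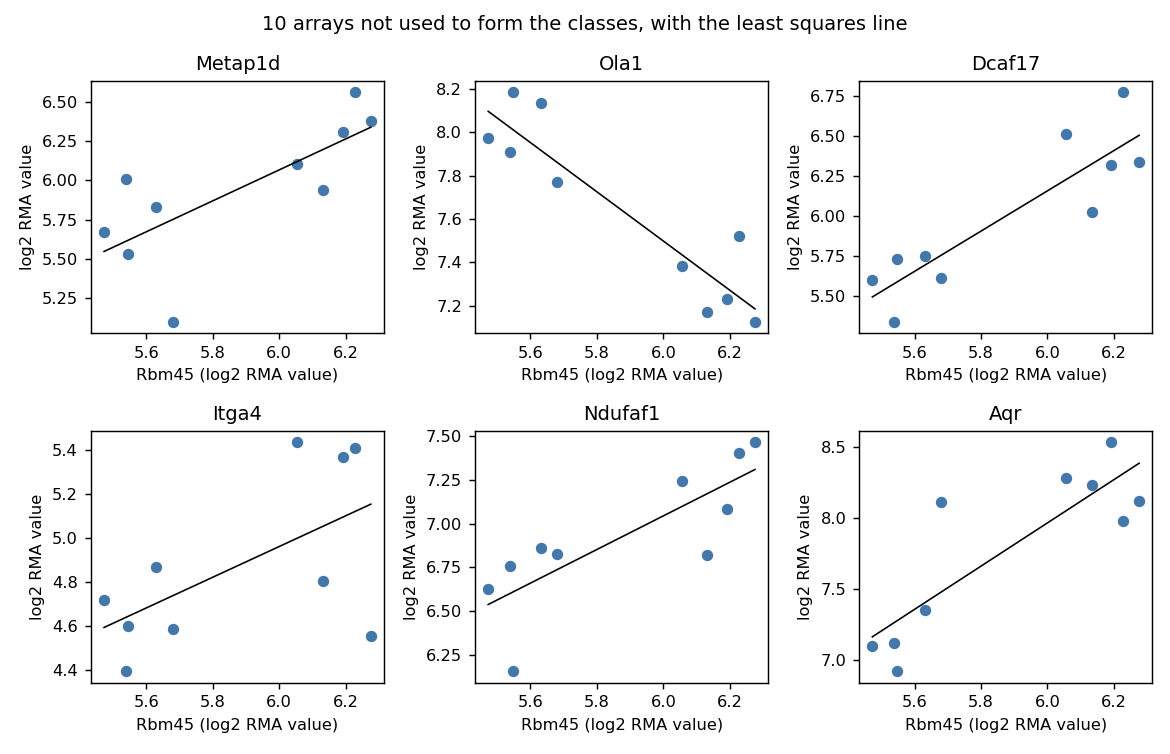
Log2 RMA values of 6 called genes against the Rbm45 level on the 10 left-out arrays of animals not among the 56 tumours, with the least squares line. Rbm45 falls on both sides of a gap from 5.68 to 6.05; Ola1 is lower and Dcaf17 higher on the 5 arrays above the gap.

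The 1 gene called on these 10 arrays was Il33, an alarmin cytokine encoded on chromosome 19, with a slope of -2.002 (SE 0.19, limma adjusted p = 0.00280). It differed by -0.01 (SE 0.21) in the 56 tumours. With all 12 left-out arrays it did not pass (limma adjusted p = 0.378).

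The class differences were also compared between animals numbered below and above 4000. No gene passed for the interaction in limma, and 217 of 12560 had an unadjusted p under 0.05. All 12 called genes had the same sign in both number ranges, in array set 1 and in array sets 3 and 4, which are subsets of the tumours on which they were called, so this is a description and no support.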

How the data were processed

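Total RNA of 68 mammary tumours was measured on Affymetrix arrays. The deposited values, taken as log2 because they span 1.68 to 14.6, were made by the authors with RMA (background correction, normalisation between arrays, summary of probes), according to the submitters' processing notes. No source used here names the log base or a version. Genes were named from the platform's annotation (34958 of 45101 probe sets with 1 gene, 932 with several, 9211 not listed) and chromosomes and gene order from RefSeq (GRCm38.p6), which held 34754 of those probe sets.

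For each gene the probe set of highest mean was used, and the gene was tested if its 95th percentile exceeded the median of all values (5.42). This kept 12561 of 18193 genes, from which Rbm45 was removed. The limma 3.58.1 fit (lmFit and eBayes, R 4.3.3) held the class and the array set, a data-derived technical split and not a group of the study. P-values were adjusted by Benjamini-Hochberg over all genes tested, and a gene was called below 0.05. The fit was tested on simulated data. The labels do not say whether animals shared litters or batches. The p-values set each class difference against the spread that the fit leaves between these tumours, and take the tumours as independent. The number of arrays limits the precision. No 2 kept arrays correlated above 0.995.

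The members and gene lists were chosen with earlier results of these data known. Named genes are Rbm45, Metap1d, the 10 nearest genes on each side, up to 25 called chromosome 2 genes, called genes elsewhere, and list members that were called or had the largest differences, with all members of the lists of clustered genes, Rbm45 partners, Nrf2 pathway and metastasis modifiers eligible. Genes outside the rule (Slc43a3, Rnd3, Klhl41, Mrpl12, Cox17, Mrps5, Nqo1 and further list members, Il33, Phf21a, Slc25a12, Med19, Slc39a6) were chosen after their values were seen. Alternatives covered the array sets, thresholds, probe sets, filters, tissue and RNA quality terms, array weights and number range.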

Additional observations from a re-analysis of the deposited data

How the results depend on the processing

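The number of called genes was 12 (all on chromosome 2), and stayed between 9 and 17 in 13 of 15 alternative settings of the comparison. It was 5 in array set 1 only (39 arrays), all 5 on chromosome 2, and 1, Metap1d, in array sets 3 and 4 only (17 arrays), a setting chosen after seeing the data. Both test fewer tumours. On other chromosomes the count of 0 became 1 with the probe set of the largest SD (Slc39a6 on chromosome 18). With every probe set, named or not, added after seeing the data, 1 probe set without a listed gene was called. Its chromosome is not known here, so it may or may not lie on chromosome 2. The cause was not tested. In the left-out arrays the count of 1 became 0 with all 12 arrays. The alternatives include the least squares threshold, which gave the same classes and so the same fit, so its outcome was fixed in advance. Metap1d passed in 15 of 15 alternatives, with differences from 0.79 to 0.94 and adjusted p-values up to 0.00226. Ola1 passed in 14 of 15, Itga4 in 13 of 14, Spint1 in 12 of 15, Mmadhc in 11 of 15 and Adamtsl2 in 6 of 15. Among the named genes other than Metap1d, 30 values no longer passed and 12 newly passed. No value that passed in either setting changed sign. Of 1515 values of 102 genes, 118, from 58 genes, changed sign without passing in either setting, Ttn (-0.30 in array sets 3 and 4) among them, and 6 values of such genes moved by more than their SD. With all 68 arrays 12 genes were called, 10 of them among the original 12, with Slc43a3 and Rnd3 new. The 12 arrays with a raised 18S control all fall at or below 6.5 and form an array set of their own. That set holds no array of the Rbm45-high class, so with the array set as a term it adds little to the comparison. This setting is therefore no independent support. No paired analysis was possible because the labels form 1 group.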

Other observations

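Some chromosome 2 genes differed between the classes in a probe set other than their brightest, and are named after their values were seen. When every probe set with 1 gene was tested, Phf21a, a histone reader of a repressor complex, differed by 0.51 in probe set 1441145_at (SE 0.092, limma adjusted p = 0.00174), with 4.76, 6.02 and 6.57 in the Rbm45-high and 4.18, 5.37 and 6.30 in the Rbm45-low tumours. Its 3 other probe sets differed by 0.03, 0.01 and 0.00. Slc25a12, the mitochondrial aspartate-glutamate carrier, differed by -0.39 (SE 0.049) and -0.22 (SE 0.047) in probe sets with means of 5.76 and 6.08, and by -0.03 (SE 0.052) in its brightest. Med19, a subunit of the Mediator complex, differed by 0.20 (SE 0.037) in 1427332_at and by 0.16 (SE 0.044) in the brighter 1452395_at.

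Of 3440 tested probe sets without a listed gene, 1 was called: 1440274_at had 4.85, 5.18 and 5.73 in the high and 4.54, 4.89 and 5.22 in the low tumours (difference 0.28, SE 0.050, limma adjusted p = 0.00165). It exceeded the filter's 5.42 only in high tumours. Its gene and chromosome are not named here.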
